A study of Rattus norvegicus with 13 samples.

Results

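Small RNA libraries of rat kidney hold reads that were counted under the names of miRNAs from other species, and those rows are described here. All rows that the deposited count table files as mature miRNAs of other organisms were taken, which gave 194 of its 1121 rows. Their names carry 45 species prefixes, led by human (hsa, 51 rows), mouse (mmu, 46), cow (bta, 20) and chicken (gga, 8), and 3 rows carry the prefix cel of the worm Caenorhabditis elegans. A name tells which catalogued sequence the reads matched, not that they came from that organism.

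The study asked how miRNAs in the kidney differ late after irradiation and with lisinopril, an inhibitor of angiotensin-converting enzyme. All animals were female WAG/RijCmcr rats, 11 to 12 weeks old and near 155 g when irradiated, and whole kidney RNA was taken at day 35. The control group (4 rats) received 0 Gy. The irradiated group (4 rats) was exposed to 320 kVp X-rays (13 Gy, delivered at 1.75 Gy per min), with a hind limb kept out of the field. The third group (5 rats) received the same irradiation plus lisinopril in the drinking water, about 24 mg per m2 per day from day 7 to the end. Saline (40 ml per kg per day, days 3 to 7) and enrofloxacin (10 mg per kg per day, to day 14) were given as supportive care, and the labels do not say whether the control rats received them. For both groups without lisinopril the labels give the medication as none. Libraries are named by group and replicate, as in control library 2. P-values measure the spread between these rats.

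A miRNA is a short RNA that guides an Argonaute protein to messenger RNAs, mostly through its seed, bases 2 to 8 from the 5′ end. Many miRNAs are nearly identical across vertebrates, so a read of a rat miRNA can also match an entry of another species. Other catalogue entries coincide with pieces of transfer RNA, ribosomal RNA or small nucleolar RNA. Worm miRNAs such as cel-miR-39 and cel-miR-54 have no mammalian counterpart and are in common use as synthetic spike-ins. The labels mention no spike-in.

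The rows were separated by how they varied across the 13 libraries. A row was said to follow a rat miRNA where the log2 ratio of its counts to those of a rat row had an SD of at most 0.15, which held for 14 rows. Another 22 rows did not, but share the name of a rat row apart from prefix and arm. The other 158 rows did neither, although 28 of them share the family number in their name with a rat row. Counting error widens the spread of the ratio in rows with few counts, so the rule can miss a relation there. Only 41 other-species rows had a median of at least 200 counts, and 11 of these 41 followed a rat miRNA. A row of neither kind is therefore not shown to be unrelated to rat miRNAs. Of the 460 rat rows, 33.5% also have another rat row within that SD, so a pairing at 0.15 can be a coincidence. At an SD of 0.1 the rule left 8 rows, each with a median ratio between 0.5 and 2, against 10.7% of rat rows at any ratio, or 28 of the 460 in that range of ratios.

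The mature sequences of the rat miRNAs that these 8 rows follow are shown because they are the RNAs the rows most resemble in the data. They come from RefSeq (GRCr8), where 10 of the 10 rat miRNAs looked up were matched, and capitals mark the seed. The sequences of the other-species entries themselves were not used here.
miR-22-3p, followed by bta-miR-3600: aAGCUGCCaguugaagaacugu
miR-26a-5p, followed by bta-miR-26c: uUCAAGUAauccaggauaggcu
miR-199a-3p, followed by bta-miR-3604: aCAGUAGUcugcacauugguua
miR-423-5p, followed by hsa-miR-3184-3p: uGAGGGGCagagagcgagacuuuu
miR-103-3p, followed by hsa-miR-103b: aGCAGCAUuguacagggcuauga
miR-28-3p, followed by ppy-miR-151b: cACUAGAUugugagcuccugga
let-7b-5p, followed by bta-miR-3596: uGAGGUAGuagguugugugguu
miR-7a-5p, followed by hsa-miR-3529-3p: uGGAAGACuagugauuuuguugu
These 8 rat miRNAs have 8 different seeds, so the rows do not stand for a single seed family.

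Levels are given as CPM, a row's counts per 1000000 counts of mature rat miRNAs in the same library. Those rat totals ranged from 1194175 in control library 2 to 11095939, and the next lowest was 4885082. In control library 2 a count is worth 0.837 CPM and 3 counts 2.51 CPM, against 0.270 to 0.614 CPM for 3 counts in the other libraries. Of the 194 rows, 66 had a mean of at least 10 CPM and 128 lay below. A 0 in some library was found in 41 rows, and 27 of them stood at 0 in control library 2. The kidney-enriched rat miR-192-5p was high in every library, at 41270 to 90394 CPM.

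Control library 2 stood apart from all others in these rows. Counts in other-species rows equalled 12.2%, 40.9%, 14.3% and 14.5% of the rat mature counts in control libraries 1 to 4. They equalled 17.1%, 15.7%, 16.8% and 12.8% in the irradiated libraries, and 13.2%, 12.6%, 11.5%, 12.4% and 11.6% with lisinopril. The rows that follow a rat miRNA made up 10.8% to 15.3% in every library, control library 2 included. The rows of neither kind made up 30.1% in control library 2 and 1.02% to 1.57% in the other 3 controls. They made up 0.834% to 2.31% in the irradiated libraries and 0.721% to 1.06% with lisinopril. The same-named rows held at most 0.00651%. A single row, gga-miR-1766, equalled 21.2% of the rat counts in control library 2 and made up 70.4% of the rows of neither kind there. The counts of called rows in the 3 comparisons are therefore given with and without that library. Where a row, median or overlap below has no value without it, the value includes control library 2.

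**Figure D1:**
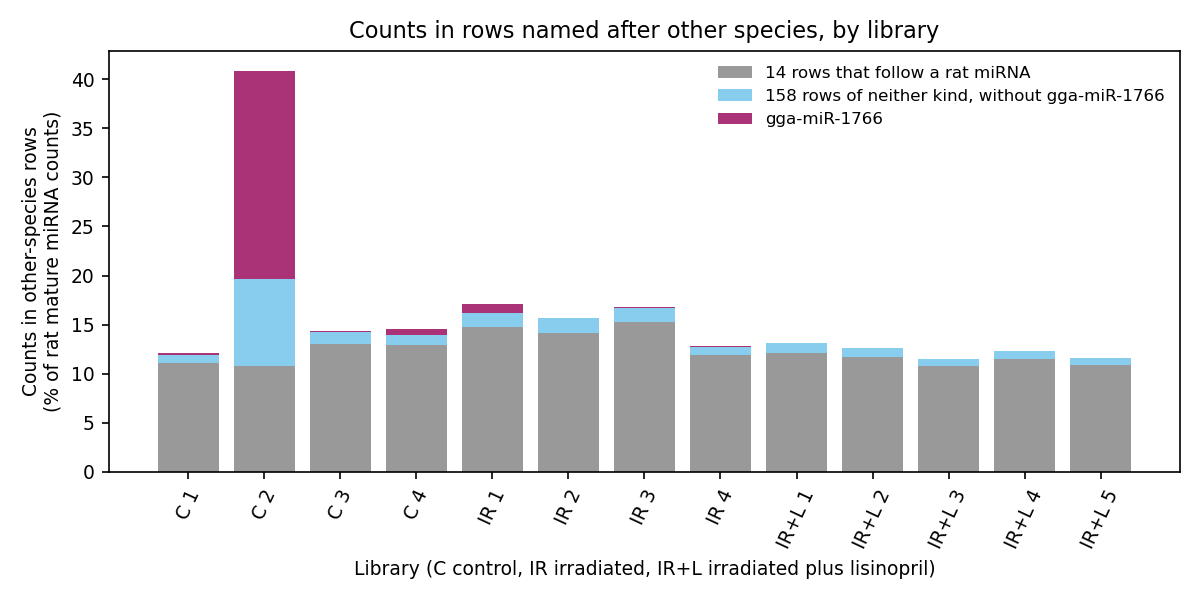
Counts in other-species rows of each library as a percentage of its mature rat miRNA counts (vertical axis, from 0), stacked by kind of row, with the 22 same-named rows left out as too small to see. The grey part lies between 10.8% and 15.3% in all 13 libraries, and control library 2 alone carries a tall second part, most of it gga-miR-1766.

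The row that followed its rat partner most closely was bta-miR-3600, whose count was 97.3% to 98.4% of that of miR-22-3p in each library (SD of the log2 ratio 0.006). Its level was 52281, 51778, 65452 and 73100 CPM in the controls and 87165, 80729, 88209 and 62594 CPM in the irradiated kidneys. With lisinopril it was 66144, 51388, 50828, 57797 and 55633 CPM. Irradiated libraries 1 to 3 were the highest of all, and the groups overlapped in each comparison.

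Cow bta-miR-26c ran at 87.6% to 91.6% of miR-26a-5p, a widely expressed miRNA, and its level stayed between 39127 and 52341 CPM. These 2 rows held 87.0% to 90.7% of all counts in the rows that follow a rat miRNA. Cow bta-miR-3604 ran at 97.0% to 104% of miR-199a-3p, a miRNA abundant in fibroblasts. Cow bta-miR-3596 ran at 54.3% to 59.5% of let-7b-5p, a let-7 family member. Orangutan ppy-miR-151b ran at 49.3% to 54.5% of miR-28-3p.

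Among the human names, hsa-miR-3184-3p ran at 73.9% to 79.4% of miR-423-5p and hsa-miR-103b at 121% to 132% of miR-103-3p (SD 0.035). The row hsa-miR-103b was also near constant against miR-107-3p, at 310% to 347% (SD 0.048), and miR-93-5p, at 357% to 443% (SD 0.092). The row hsa-miR-3529-3p ran at 80.0% to 96.9% of miR-7a-5p, with the widest spread of the 8 (SD 0.080) at levels of only 3.47 to 11.6 CPM. As background, human miR-3184, miR-103b and miR-3529 are annotated on the strand opposite miR-423, miR-103a and miR-7. The sources do not say how reads of either strand were counted.

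The other 6 rows within the SD of 0.15 paired less tightly or at ratios far from 1. The row bta-miR-3601 stood at 97.7% to 130% of miR-542-5p, and hsa-miR-4301 at 138% to 191% of miR-17-1-3p. The rows cin-miR-3575-5p and mmu-miR-30f stood at 5.07% to 6.41% of miR-200b-3p and 5.70% to 8.15% of miR-30a-3p. The row blv-miR-B3-3p, a bovine leukaemia virus name, stood at 0.0448% to 0.0619% of miR-30d-5p. The row dme-miR-10-3p lay between 3733 and 5604 CPM, 52.4 to 75.8 times miR-10b-5p (SD 0.136). It paired nearly as closely with miR-10a-5p (SD 0.138), at 1.11% to 1.56% of it. These 6 pairings rest on a near-constant ratio alone.

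**Figure D2:**
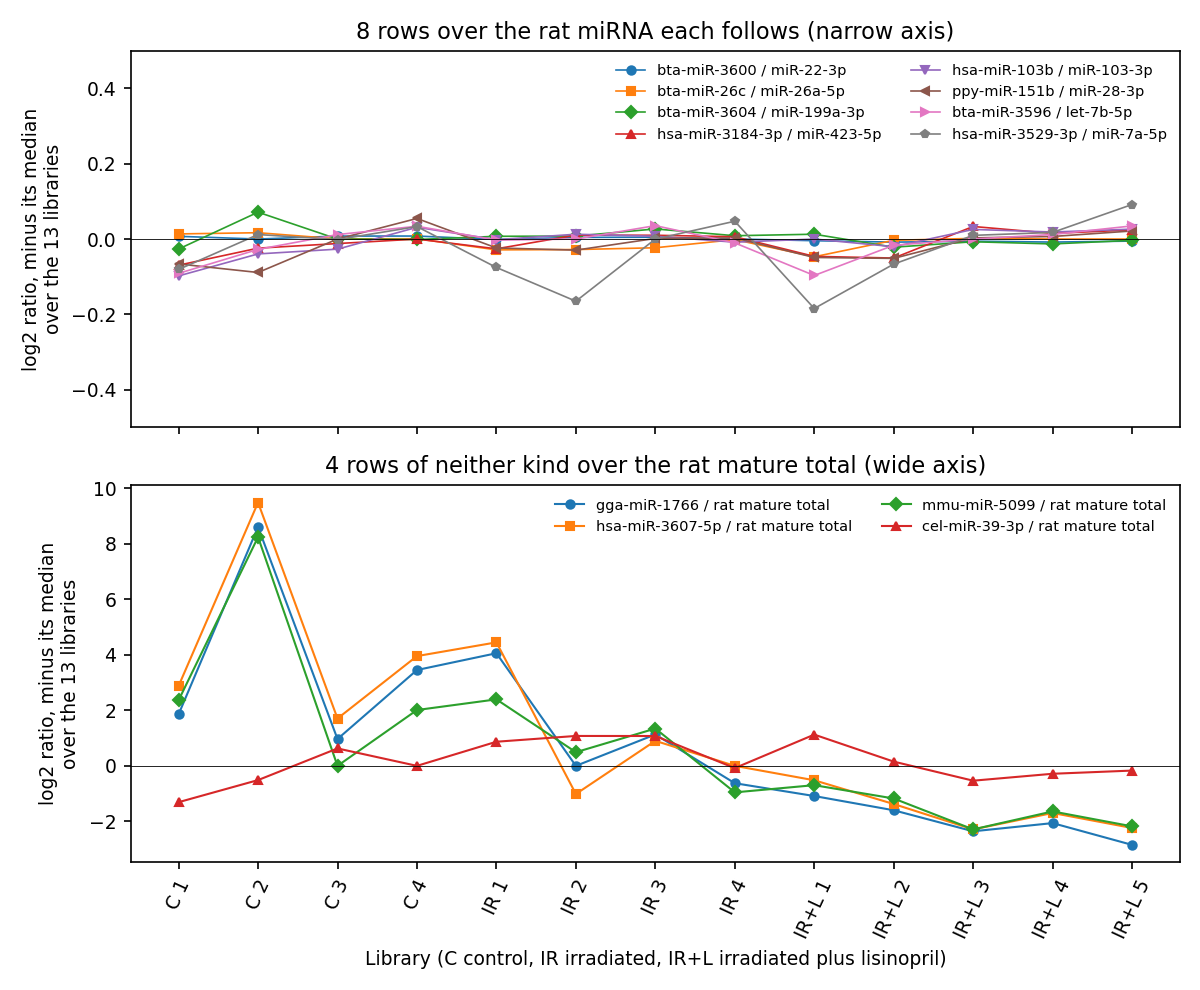
Log2 ratio by library, each minus its median over the 13 libraries: 8 rows over the rat miRNA each follows (top, axis from -0.5 to 0.5) and 4 rows of neither kind over the total of mature rat counts (bottom, wide axis). The upper lines stay near 0 in every library, with hsa-miR-3529-3p moving most, while gga-miR-1766, hsa-miR-3607-5p and mmu-miR-5099 peak in control library 2.

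With the rat totals as library sizes, rows that follow a rat miRNA gave no call in any of the 3 comparisons, with or without control library 2. The tightest ones differed between groups by nearly the same amount as their rat partners. A call is an adjusted p under 0.05 in the quasi-likelihood test of edgeR, corrected by Benjamini-Hochberg over the 572 rows fitted, 419 of them rat and 153 of other species. In irradiated against control kidneys, bta-miR-3600 differed by 0.39 on the log2 scale (SE 0.14, adjusted p = 0.136) and miR-22-3p by 0.40 (SE 0.14, adjusted p = 0.136). With lisinopril against irradiation alone, bta-miR-3600 differed by -0.50 (SE 0.13, adjusted p = 0.163) and miR-22-3p by -0.49 (SE 0.13, adjusted p = 0.163). Without irradiated library 4 the adjusted p of bta-miR-3600 in that comparison was 0.0439, in a range of 0.0252 to 0.407 over all alternatives. When libraries were scaled by TMM factors on the rat miRNAs, edgeR called bta-miR-3601 higher in lisinopril against control. For hsa-miR-3184-3p and miR-423-5p lisinopril against irradiation alone gave -0.98 (SE 0.31) and -0.97 (SE 0.30). Since the ratio of such a pair hardly varied, its second row carries no result of its own.

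Between irradiated and control kidneys 0 of 153 other-species rows were called in either direction, beside a background of 0.175% of all rows tested. By unadjusted p under 0.05, 43 of the 153 stood out, 28.1%, against 26.7% of all rows. DESeq2 called 1 higher and 4 lower (background 4.51%), and limma-voom called 0. Without control library 3 edgeR called 11 higher and 7 lower of 153, beside a background of 9.88% in that fit. Without irradiated library 4 it called 10 higher and 0 lower of 163 (background 8.28%). With control library 2 left out it called 0 of 160 (background 0.17%).

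The smallest p-values in this comparison were those of hsa-miR-4286, bta-miR-1940, mmu-miR-3535, sha-miR-716b and hhv6b-miR-Ro6-1-3p. The row hsa-miR-4286 stood at 2.25, 4.19, 6.68 and 4.30 CPM in controls and 10.6, 17.8, 15.7 and 6.36 CPM after irradiation. The groups overlapped only through irradiated library 4, and the log2 difference was 1.53 (SE 0.36, edgeR adjusted p = 0.113, 0.0119 to 0.288 over the alternatives). It was 1.52 without control library 2. The others pointed the opposite way, with differences nearer 0 without that library. The difference of mmu-miR-3535 was -3.58 with it and -0.60 without it, and that of bta-miR-1940 was -4.12 and -0.50. For sha-miR-716b it was -3.23 and -1.14, and for hhv6b-miR-Ro6-1-3p -3.42 and -1.16.

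Over the 53 rows of neither kind whose mean reached 10 CPM, the median log2 difference between irradiated and control was -0.74 with control library 2 and 0.30 without it. Over all rows tested the median was 0.24 and 0.23. The median of these 53 rows thus changed sign with 1 library, which also enters the mean that chose them. Over all 126 rows of neither kind tested the median was 0.05. It was 0.32 over the 132 tested without control library 2, so it kept its sign there. Complete separation of the groups, irradiated above control, was seen in 3 rows, dre-miR-125a, mmu-miR-6944-3p and mne-miR-140, of 153 (background 4.37%). None of the 153 separated in the lower direction (background 0.699%).

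Kidneys of irradiated rats given lisinopril differed from controls in 23 of the 153 rows, 3 higher and 20 lower, while 7.52% of all rows were called (1.22% higher and 6.29% lower). All 20 lower rows were of neither kind, as were 126 of the 153 rows tested. In all 20 the highest of the 13 libraries was control library 2. A very high control library can itself favour a lower call, so this is partly built in, and no share over all rows was computed. In 13 of the 20 every library with lisinopril lay below every control. When control library 2 was left out edgeR called 4 higher and 11 lower of 160 (background 5.79%, with 1.19% higher and 4.6% lower). All 11 lower rows were among the 20, and all 3 higher rows were among the 4.

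The most abundant of the lower rows was gga-miR-1766, a name from chicken. It stood at 1974, 211728, 1064 and 5960 CPM in control libraries 1 to 4 and at 9063, 545, 1192 and 353 CPM after irradiation. With lisinopril it stood at 256, 180, 106, 130 and 75.8 CPM. All 5 libraries with lisinopril lay below all 8 others. Control library 2 was the highest and irradiated library 1 the second highest, and controls and irradiated libraries overlapped.

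Against control, gga-miR-1766 fell by 8.53 on the log2 scale with lisinopril (SE 1.74, edgeR adjusted p = 0.00871) and by 4.32 without control library 2 (SE 0.93, adjusted p = 0.0154). Its adjusted p lay between 0.000635 and 0.0409 over the alternatives that gave one. Irradiation alone against control gave -4.31 (SE 1.59, adjusted p = 0.136) with control library 2 and -0.11 (SE 0.93, adjusted p = 0.937) without it. These comparisons share the control libraries, so the values stand side by side as no separate evidence.

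The row hsa-miR-3607-5p, a human name that lies within a small nucleolar RNA, showed the same order at lower levels. It stood at 122, 11933, 54.3 and 258 CPM in controls, at 364, 8.25, 31.1 and 16.7 CPM after irradiation and at 11.6, 6.43, 3.41, 5.14 and 3.53 CPM with lisinopril. Its lisinopril libraries lay below all controls but overlapped with irradiated library 2. It fell by 9.02 against control (SE 1.87, edgeR adjusted p = 0.009) and by 4.61 without control library 2 (SE 1.03, adjusted p = 0.0168).

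The mouse-named mmu-miR-5099 stood at 223, 13076, 43.3 and 174 CPM in controls, 228, 60.9, 110 and 22.3 CPM after irradiation and 26.7, 19.2, 8.86, 13.9 and 9.56 CPM with lisinopril. Only irradiated library 4 overlapped with the lisinopril group. It fell by 7.76 against control (SE 1.57, edgeR adjusted p = 0.00871) and by 3.24 without control library 2 (SE 0.65, adjusted p = 0.0101). Irradiation alone against control gave -4.88 for hsa-miR-3607-5p and -5.01 for mmu-miR-5099, and -0.47 and -0.48 without control library 2, none of them called. Without control library 3 mmu-miR-5099 was called lower there (-5.42, edgeR adjusted p = 0.0460). These rows and gga-miR-1766 were singled out with their values known.

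The levels of the 3 rows across the 13 libraries are compared as a description, with no p, since the rows were chosen with their values known. Pearson's r of log2(CPM + 1) between gga-miR-1766 and hsa-miR-3607-5p was 0.988 and Spearman's rho 0.973. Leaving out control library 2 gave an r of 0.974, and leaving out irradiated library 1 as well, the 2 farthest from the median, 0.962. Between gga-miR-1766 and mmu-miR-5099 r was 0.973 and rho 0.978, with r at 0.951 and 0.946 under those omissions. Between hsa-miR-3607-5p and mmu-miR-5099 r was 0.961 and rho 0.945, with r at 0.909 and 0.888. Within the 9 irradiated rats r was 0.967, 0.968 and 0.890 for the 3 pairs. The rows share their libraries and the rat total as denominator, and their ratio was far from constant, with gga-miR-1766 at 16.1 to 66.0 times hsa-miR-3607-5p.

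Libraries with fewer rat mature counts tended to have a higher CPM of gga-miR-1766. That CPM has the rat total as its denominator, so a negative relation is partly built in. The r of gga-miR-1766 with the total of rat mature counts was -0.796 and rho -0.654. These are given with no p, since the row was chosen with its values known. Without control library 2 r was -0.447 and rho -0.559. Without that library and irradiated library 1 r was -0.206, so the size of r over all groups rests on those 2. Within the 9 irradiated rats, which include irradiated library 1, r was -0.807. The part of depth in the group differences was not tested.

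**Figure D3:**
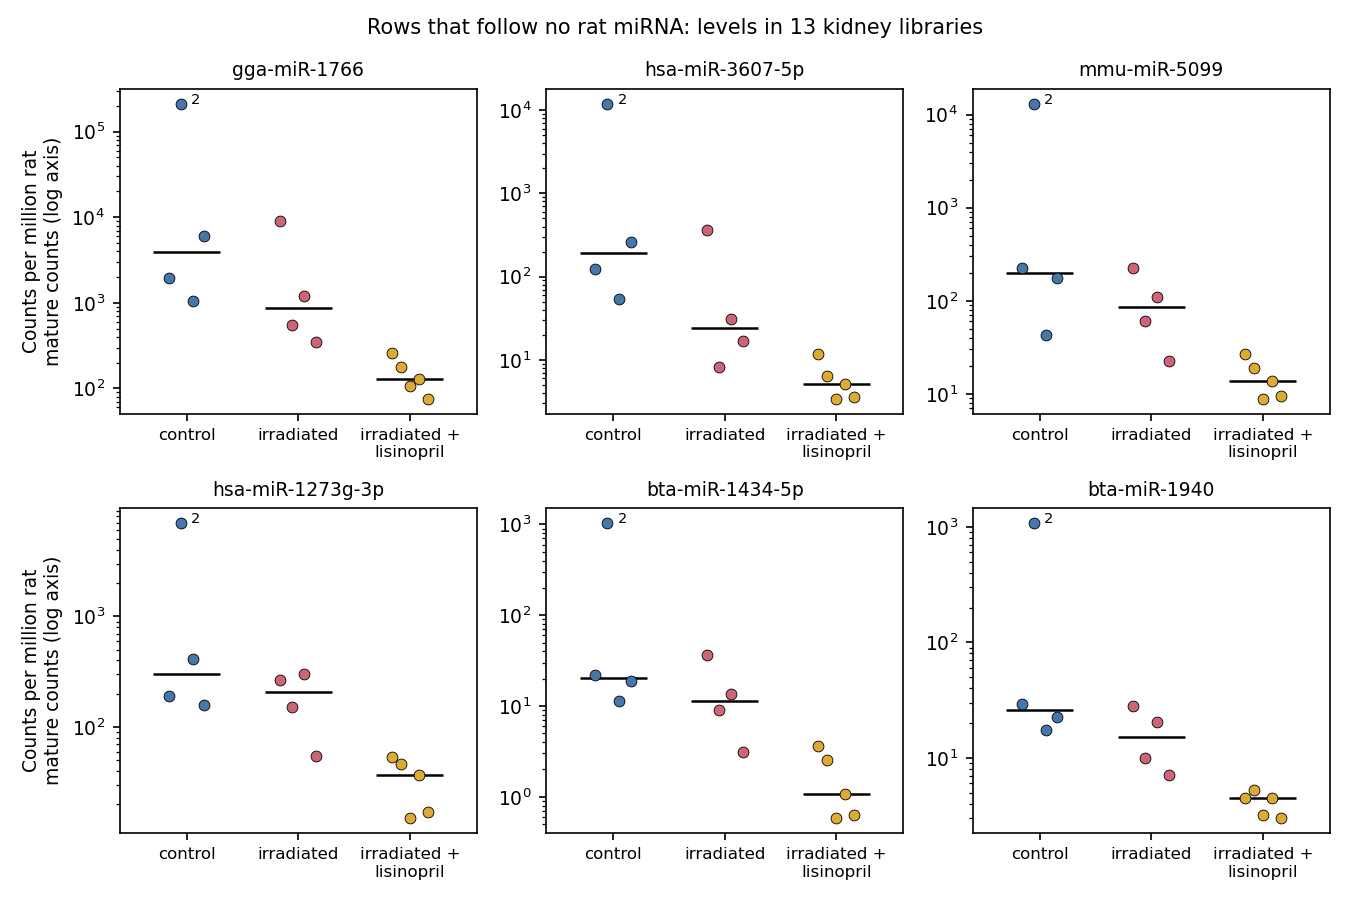
CPM per library (log axis) of 6 rows of neither kind in the 3 groups, with a line at each group's median and control library 2 marked 2. In each panel control library 2 is the highest point, and the 5 lisinopril libraries lie below all 4 controls.

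Smaller rows of neither kind showed the same order. The row bta-miR-1940 stood at 29.3, 1078, 17.3 and 22.7 CPM in controls, 28.0, 10.0, 20.4 and 7.04 CPM after irradiation and 3.01 to 5.32 CPM with lisinopril. Its lisinopril libraries lay below all 8 others. It fell by 6.11 against control (SE 1.21, edgeR adjusted p = 0.00871) and by 2.49 without control library 2 (SE 0.38, adjusted p = 0.00243). The row hsa-miR-1273g-3p also placed the lisinopril libraries (15.1 to 53.8 CPM) below all 8 others, the nearest being irradiated library 4 at 55.0 CPM. It stood at 189, 6986, 410 and 158 CPM in controls and fell by 5.84 (SE 1.14, edgeR adjusted p = 0.00871), or by 2.90 without control library 2 (SE 0.54, adjusted p = 0.00636).

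The opossum-named mdo-miR-7341-5p and the cow-named bta-miR-1434-5p fell by 7.80 and 7.36 with all libraries and by 3.77 and 3.43 without control library 2. The first stood at 12.8 to 1672 CPM in controls and 0.832 to 4.34 CPM with lisinopril, and the second at 11.4 to 1035 CPM and 0.584 to 3.64 CPM. The other rows called in both fits were mmu-miR-3535, sha-miR-716b, hhv6b-miR-Ro6-1-3p and bta-miR-2889. The row mmu-miR-3535 fell by 4.77 and by 1.79 without control library 2, with controls at 82.1 to 3036 CPM and lisinopril libraries at 20.0 to 47.2 CPM.

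For 9 of the 20 lower rows the call was lost without control library 2. An example is hco-miR-5978, a name from a parasitic worm, at 87.0, 1604, 108 and 71.1 CPM in controls and 43.3 to 76.6 CPM with lisinopril. It differed by -3.06 (SE 0.81, edgeR adjusted p = 0.0338), and by -0.67 without that library (SE 0.25, adjusted p = 0.149). The row mmu-miR-709 stood at 9.69, 431, 9.44 and 9.70 CPM in controls, with 3 controls nearly equal, and at 0.728 to 3.99 CPM with lisinopril. It differed by -5.98 (SE 1.44, edgeR adjusted p = 0.0217) and by -2.46 without that library (SE 0.84, adjusted p = 0.116). The others were cgr-miR-1285, dps-miR-1002-3p, hsa-miR-1303, hsa-miR-4792, mmu-miR-2137, mmu-miR-6238 and mmu-miR-6914-5p.

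Counts of calls in this comparison moved with single libraries and tools. Without control library 4 edgeR called 38 rows, beside 10.1% of all rows in that fit. Without lisinopril libraries 3, 4 and 5 it called 14, 15 and 14, beside 4.5%, 4.86% and 4.5% of all rows. DESeq2 called 19 lower rows (background 5.77%), 8 of them shared with edgeR's 20, and gave no adjusted p to the other 12, whose counts it set aside as extreme in 1 library. The tool limma-voom called 5 lower rows with all libraries (background 3.5%) and 11 without control library 2 (background 5.62%).

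**Figure D4:**
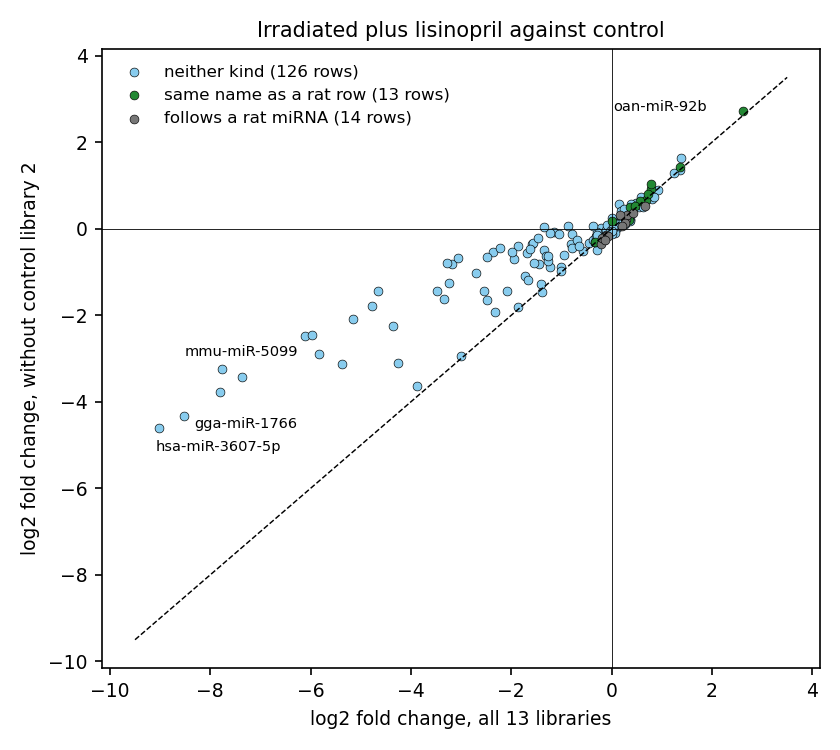
Log2 fold change of irradiated plus lisinopril against control for the 153 rows tested, with all 13 libraries (horizontal axis) and without control library 2 (vertical axis), by kind of row, with a dashed line of equality. Points at the lower left lie well above the line, so that gga-miR-1766 moves from -8.53 to -4.32, and the rows that follow a rat miRNA stay near 0 on both axes.

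A test that rests on no fitted spread was run on the 53 rows of neither kind with a mean of at least 10 CPM. By two-sided exact permutation over libraries, 14 of the 53 differed between lisinopril and control at an adjusted p of 0.0300, with 13 lower and 1 higher. The mean that chose the 53 includes control library 2, so a row could enter through that library alone. That can favour rows high in controls, and the 53 were not chosen anew without it. No other rows were tested in this way, so no share over all rows stands beside the 14. With 4 against 5 libraries the smallest unadjusted p is 0.00794. Without control library 2 the same 14 rows all stood at the smallest p that 3 against 5 libraries allow, 0.0179 (adjusted 0.0676 by the exact permutation test). An adjusted p under 0.05 would there have needed 19 of the 53 rows at that p, so the loss of calls with a library less says nothing about single libraries. By the same test 0 rows differed between irradiated and control, with 0 at an unadjusted p under 0.05. With 4 against 4 libraries the smallest p is 0.0286, and 31 of the 53 rows would have been needed at it. The 0 after adjustment therefore does not show that the groups are alike. Between lisinopril and irradiation alone 0 differed after adjustment and 16 had an unadjusted p under 0.05.

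Against irradiation alone, the libraries with lisinopril showed 0 called rows of 153, beside a background of 0.35%. By unadjusted p under 0.05, 34 of the 153 stood out, 22.2%, against 18.7% of all rows. With all libraries DESeq2 and limma-voom called 0, but without control library 2 DESeq2 did call rows, as counted in the closing section. Once control library 2 was left out, which is in neither group but enters through the shared estimate of spread and the filter on low rows, edgeR called 6 lower of 160 (background 1.53%). These were gga-miR-1766, mmu-miR-5099, bta-miR-1434-5p, bta-miR-1940, hsa-miR-1273g-3p and mdo-miR-7341-5p. Fitting only the 2 groups also gave 6 lower (background 1.72%), and leaving out irradiated library 4 gave 5 (background 4.73%). Without control library 2 and irradiated library 1 together it gave 0.

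The value of gga-miR-1766 in this comparison was -4.22 in both fits, with an SE of 1.44 and an adjusted p of 0.18 with control library 2, and 0.90 and 0.0327 without it (edgeR). The row hsa-miR-3607-5p differed by -4.13 (SE 1.53, edgeR adjusted p = 0.233), and by -4.14 without control library 2 (SE 0.99, adjusted p = 0.0645). The row mmu-miR-5099 differed by -2.75 (SE 1.28, edgeR adjusted p = 0.266), and by -2.76 without that library (SE 0.62, adjusted p = 0.0433). Over the 53 rows of neither kind with at least 10 CPM the median difference was -0.76, and 51 of them pointed lower. Of all 572 rows tested 433 pointed lower, and the median of all 572 was -0.28. With TMM factors, which set libraries level by their typical rat miRNA, the median of all rows moved by 0.19 here and by -0.23 in irradiated against control.

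Groups did not overlap in 9 of the 153 rows, lisinopril below irradiated (background 4.02%), and in 0 rows in the higher direction (background 0.874%). The 9 were 8 rows of neither kind and hsa-miR-3184-3p, which follows miR-423-5p. In lisinopril against control, 14 rows did not overlap in the lower direction (background 5.94%) and 6 in the higher (background 4.02%).

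The 3 rows higher with lisinopril than in controls carry names of the miR-10, miR-30 and miR-92 families. All 3 lie at low levels, and the rows oan-miR-92b and pma-miR-30e-5p are named because the count is small, after their values were seen. The lizard-named aca-miR-10c-5p stood at 9.57, 14.2, 12.8 and 19.1 CPM in controls, 32.3, 20.0, 13.6 and 24.6 CPM after irradiation and 34.2, 26.9, 33.8, 42.4 and 41.2 CPM with lisinopril. The lisinopril libraries lay above all controls and overlapped with the irradiated ones. It rose by 1.36 against control (SE 0.27, edgeR adjusted p = 0.00871) and by 1.37 without control library 2 (SE 0.30, adjusted p = 0.0154). Rat miR-10a-5p, at 288917 to 442474 CPM, differed by -0.03 (SE 0.09, adjusted p = 0.857) in that comparison and miR-10b-5p, at 51.1 to 93.2 CPM, by 0.30 (SE 0.16, adjusted p = 0.297). Without control library 2 the differences were 0.08 (SE 0.07, edgeR adjusted p = 0.632) and 0.47 (SE 0.15, adjusted p = 0.0954). For miR-10b-5p control library 2 stood at 87.9 CPM. The other controls, at 51.1 to 63.1 CPM, lay below all lisinopril libraries, at 69.8 to 93.2 CPM.

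The lamprey-named pma-miR-30e-5p stood at 1.54, 2.51, 1.49 and 1.98 CPM in controls, 2.25, 1.62, 4.49 and 2.92 CPM after irradiation and 3.70 to 4.99 CPM with lisinopril. It rose by 1.36 against control (SE 0.28, edgeR adjusted p = 0.009), while rat miR-30e-5p, at 14286 to 24131 CPM, differed by -0.26 (SE 0.13, adjusted p = 0.258). The platypus-named oan-miR-92b held 1, 1, 3 and 5 counts in the controls and 14, 20, 18, 31 and 22 counts with lisinopril. In CPM these were 0.118 to 0.837 and 1.75 to 2.79, with 0.819, 1.92, 0.962 and 0.172 CPM after irradiation. It rose by 2.61 (SE 0.53, edgeR adjusted p = 0.00871), and rat miR-92b-3p differed by 0.71 (SE 0.26, adjusted p = 0.122). Whether an other-species row and the rat row of its name differ from each other was not tested. The row cin-miR-181 was fitted only without control library 2 and was then called higher (2.92, SE 0.72, adjusted p = 0.0304), at 0 in control libraries 1 and 2 and irradiated library 4 and at most 1.66 CPM in the rest.

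**Figure D5:**
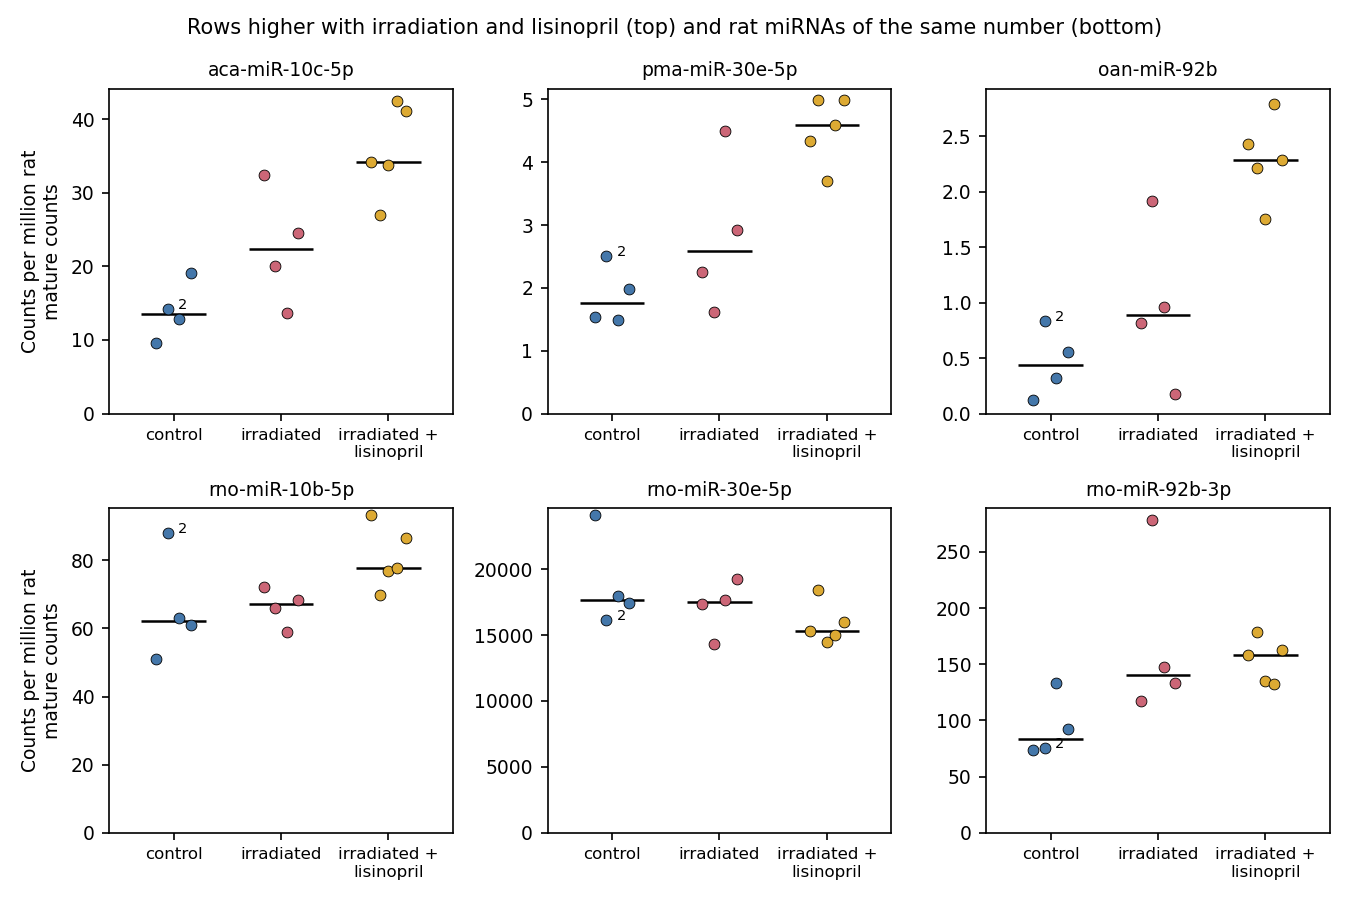
CPM per library (linear axis from 0) of the 3 other-species rows called higher with lisinopril than in controls (top) and of rat miRNAs of the same or a related name (bottom), with a line at each group's median and control library 2 marked 2. In the top panels all 5 lisinopril libraries lie above all 4 controls, and in the bottom panels the 3 groups overlap and none of the rat rows was called. For miR-10b-5p controls overlap with lisinopril libraries only through control library 2.

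Same-named rows were sparse, and none of the 22 reached a mean of 10 CPM. The most abundant were mne-miR-140, dre-miR-30a and hsa-miR-486-3p. The row hsa-miR-486-3p, from a locus active in red cell precursors, stood at 4.96, 6.70, 7.21 and 6.17 CPM in controls, 10.0, 8.55, 8.34 and 6.18 CPM after irradiation and 3.02 to 6.25 CPM with lisinopril. It differed by -0.74 between lisinopril and irradiation alone (SE 0.23, edgeR adjusted p = 0.163). Of the 13 same-named rows tested, 12 pointed higher in lisinopril against control and 2 were called higher. Of all 572 rows 324 pointed higher and 1.22% were called higher.

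Several rows of neither kind carry names of miRNAs conserved in mammals that have no rat row of that name and arm in the table. The most abundant was hsa-miR-148a-3p, a miRNA known to target DNA methyltransferase 1. The rat miRNAs of these names are printed from RefSeq (GRCr8) with the seed in capitals, because they show that the rat catalogue holds the entry.
miR-148a-3p: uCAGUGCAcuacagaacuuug
miR-148a-5p: aAAGUUCUgagacacucugacuc
The row hsa-miR-148a-3p stood at 3287, 3547, 2465 and 3756 CPM in controls, 3165, 2568, 2641 and 3547 CPM after irradiation and 2748 to 3746 CPM with lisinopril. Its differences were -0.13 (SE 0.16), 0.19 (SE 0.15) and 0.06 (SE 0.15) in the order irradiated against control, lisinopril against irradiated and lisinopril against control. None was called, and control library 2 lay within the range of the other controls.

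The row hsa-miR-148a-5p lay between 58.4 and 125 CPM and mmu-miR-744-5p between 77.9 and 296 CPM. After irradiation mmu-miR-744-5p stood at 166, 296, 238 and 133 CPM, and its difference from control was 0.78 (SE 0.26, edgeR adjusted p = 0.123), and it was called higher without irradiated library 4 (0.94, adjusted p = 0.0438). The row hsa-miR-574-3p stood at 26.0 to 61.5 CPM in controls and 52.4 to 140 CPM after irradiation. Cow bta-miR-669 ran at 77.4% to 84.7% of hsa-miR-574-3p, the only pair among the other-species rows of neither kind within an SD of 0.1 and a ratio of 0.5 to 2.

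The worm-named rows did not follow each other. The row cel-miR-39-3p stood at 150, 260, 572 and 370 CPM in controls, 676, 781, 780 and 350 CPM after irradiation and 808, 412, 256, 304 and 329 CPM with lisinopril. Irradiated libraries 1 to 3 and lisinopril library 1 were the highest. Its difference between irradiated and control was 0.94 (SE 0.44, edgeR adjusted p = 0.185) and 0.83 without control library 2 (SE 0.47, adjusted p = 0.339). Between lisinopril and irradiation alone it was -0.62 (SE 0.41, adjusted p = 0.395).

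The row cel-miR-54-3p stood at 90.0, 67.8, 26.9 and 26.9 CPM in controls, 50.8, 30.6, 99.6 and 69.4 CPM after irradiation and 54.8, 35.2, 54.1, 26.5 and 20.9 CPM with lisinopril. Its difference between irradiated and control was 0.25 (SE 0.47, edgeR adjusted p = 0.739), and it changed sign to -0.060 with TMM factors. The ratio of cel-miR-39-3p to cel-miR-54-3p ran from 1.66 in control library 1 to 25.5 in irradiated library 2. Their r over the 13 libraries was -0.117 and rho -0.0275 (permutation p = 0.703 and 0.934, also after adjustment over 3 relations tested). Without the 2 libraries farthest from the median r was 0.107. The row cel-let-7-3p lay between 0.837 and 5.84 CPM. None of the 3 worm rows was called in any of the 3 comparisons, with or without control library 2.

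Names known to overlap transfer RNA, small nucleolar RNA or ribosomal RNA made up a list of 8 rows, all tested. In irradiated against control and in lisinopril against irradiated 0 were called, and in lisinopril against control 2 were called lower, hsa-miR-3607-5p and mmu-miR-2137, beside 6.29% of all rows. The medians were -0.35, -0.51 and -0.98, beside 0.24, -0.28 and 0.06 over all rows tested. Without control library 2 they were -0.15, -0.50 and -0.55, beside 0.23, -0.28 and 0.01. Of the 8, only hsa-miR-3607-5p was called without control library 2.

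In lisinopril against irradiated all 8 members of that list pointed lower (-4.13 to -0.31), as did 433 of all 572 rows tested. In irradiated against control 4 members pointed higher and 4 lower, and in lisinopril against control 2 and 6. The tRNA-related cgr-miR-1260 stood at 122, 227, 345 and 282 CPM in controls and 386, 649, 499 and 287 CPM after irradiation, with a difference of 0.90 (SE 0.30, edgeR adjusted p = 0.122). Control library 2 lay within the other controls for cgr-miR-1260, and also for hsa-miR-4454 at 29.2, 72.9, 154 and 45.8 CPM. The rRNA-related mmu-miR-6240 stood at 52.4, 216, 130 and 44.8 CPM in controls and 31.6 to 60.0 CPM with lisinopril. From the same host as hsa-miR-3607-5p, the 3p arm hsa-miR-3607-3p lay between 1.47 and 5.52 CPM in 12 libraries and at 0 in control library 2, where 3 counts are 2.51 CPM and hsa-miR-3607-5p stood at 11933 CPM.

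Other abundant rows of neither kind were not called in any of the 3 comparisons. The row bta-miR-2340 reached 25166 CPM in control library 2 and 812 to 2128 CPM in the other controls, with 101 to 2509 CPM with lisinopril. The row hsa-miR-3168 stood at 645, 1725, 307 and 660 CPM in controls, 1518, 3578, 2658 and 102 CPM after irradiation and 460, 879, 70.8, 101 and 10.7 CPM with lisinopril. Its largest values lay in irradiated libraries 2 and 3, unlike gga-miR-1766. Between these 2 rows r was 0.606 and rho 0.698, given with no p since gga-miR-1766 was singled out with its values known. Without control library 2 r was 0.637, and without the 2 farthest libraries 0.610.

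Rows that varied less included bta-miR-2478 (201 to 643 CPM), bta-miR-2898 (184 to 825 CPM), oan-miR-1386 (111 to 737 CPM) and hhi-miR-7641 (229 to 939 CPM). The human-named hsa-miR-7641 reached 775 CPM in control library 2, 0.825 times hhi-miR-7641 there, and 28.1 to 144 CPM in the other 12 libraries, 0.118 to 0.196 times hhi-miR-7641. Over the 53 rows of neither kind with at least 10 CPM, control library 2 was the highest of the 13 libraries in 34. The mean that chose these rows includes control library 2, so this count is partly built in, and no share over all rows was computed. Levels in whole kidney do not tell fewer cells carrying an RNA from less RNA per cell.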

How the data were processed

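Per the labels, small RNA libraries were made from 1 ug of total kidney RNA of 13 rats with an Illumina TruSeq kit. The submitters' processing notes name Trim Galore 0.2.5, Bowtie 1.1.1 and the rn4 build. Values are read counts, deposited by the authors as whole numbers for each row and library, with no normalization visible in them. The sources used here do not give the counting rules for multiple matches, mismatches or strand. Every column was mapped by the labels' sample titles, and 0 columns were left unused.

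CPM was computed on the total of the 460 mature rat rows. The tests used edgeR 4.0.16 (glmQLFit and glmQLFTest) under R 4.3.3 on all 13 libraries with a mean per group, on rat and other-species rows together, with those totals as library sizes, no normalization factor and filterByExpr by group. This kept 572 rows, and the threshold was an adjusted p of 0.05. DESeq2 1.42.0 and limma-voom (limma 3.58.1) were alternatives. Ratios used counts + 0.5, and permutation tests log2(CPM + 1). The edgeR fit was tested on simulated data. Floors are 3 counts and cover counting error only, since the reads carried no molecular identifiers that the labels mention.

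Rows named were all worm rows, the 3 singled out by the rule of choice, rows of neither kind with at least 100 CPM in a group, and per comparison the 8 called rows with the largest difference each way (mean of at least 10 CPM) or the 5 smallest p-values. Added were the 10 most abundant rows of the other kinds and the list of structural RNA names. The members, lists and tests were chosen with earlier results of these data known.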

Additional observations from a re-analysis of the deposited data

Results flagged for a closer look

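In 192 groups of 4 or 5 libraries (named rows on the log2 scale and shares of counts), 15 had a highest or lowest library far from the others, where chance flags about 1 in 20. Control library 2 was far above the other controls for counts in all other-species rows, at 40.9% of the rat mature counts against 12.2% to 14.5%, and for rows of neither kind, at 30.1% against 1.02% to 1.57%. It was far above them for bta-miR-1434-5p at 1035 CPM, bta-miR-1940 at 1078 CPM, hco-miR-5978 at 1604 CPM, mmu-miR-3535 at 3036 CPM and mmu-miR-709 at 431 CPM. It was far below them for hsa-miR-103b, at 1734 CPM against 2661 to 2905 CPM, a row that follows miR-103-3p.

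Control library 4 was low for mmu-miR-3963, at 0.551 CPM against 1.54 to 1.70 CPM. Irradiated library 4 was low for bta-miR-2478 at 426 CPM (605 to 643 CPM in the others), cgr-miR-1285 at 35.0 CPM (101 to 105 CPM) and mmu-miR-6236 at 7.90 CPM (19.7 to 22.9 CPM). Among lisinopril libraries, library 1 was low for hsa-miR-3184-3p at 129 CPM (192 to 223 CPM). Library 4 was high for dre-miR-30a at 9.82 CPM (6.59 to 7.38 CPM), and library 2 for mmu-miR-2137 at 2.10 CPM (1.21 to 1.35 CPM).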

How the results depend on the processing

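Counts of called other-species rows changed with library, tool and rows fitted, and the cause was not tested. Leaving out each library in turn gave 0 to 18 calls for irradiated against control, 0 to 6 for lisinopril against irradiated and 14 to 38 for lisinopril against control (main values 0, 0 and 23). Of all rows, 9.88% were called in the fit with 18, and 1.53% in the fit without control library 2 with 6. It was 4.5% and 10.1% with 14 and 38, and 0.175%, 0.35% and 7.52% in the main fits. Counts below without a percentage have no share over all rows beside them and are not set against a background. For irradiated against control DESeq2 gave 5 (background 4.51%), and 1 without control library 2. For lisinopril against irradiated, fitting only the 2 groups gave 6, all lower (background 1.72% lower), and without control library 2 TMM factors gave 5 and DESeq2 23. For lisinopril against control limma-voom gave 8, fitting all 6 categories of rows gave 15, and limma-voom without control library 2 gave 15. The exact permutation test gave 0 to 14 rows there when a library was left out, with 0 wherever a control or lisinopril library less raised the smallest possible p to 0.0179 or 0.0286, which would need 19 or 31 rows at that p, so those values say nothing about stability. As a share of all counts in the table, the group medians were 8.36% in irradiated and 6.49% in lisinopril libraries, against 16.3% and 12.4% of rat mature counts. An SD limit of 0.1 or 0.25 left 8 or 32 rows that follow a rat miRNA in place of 14. The relation of gga-miR-1766 to the rat total fell to r = -0.447 without control library 2.

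Uncalled single rows that changed sign were cel-miR-54-3p, irradiated against control (-0.060 with TMM, -0.0460 with DESeq2 size factors, -0.016 with TMM over both kinds of row, and -0.066 to 0.66 when a library was left out) and, when a library was left out, cel-let-7-3p in lisinopril against irradiated (-0.077 to 0.53). In lisinopril against control cel-miR-39-3p (-0.057 to 0.70) and hsa-miR-3607-3p (-0.52 to 0.18) did so as well. No paired analysis was possible because replicate numbers only follow the order of deposit. The alternatives that leave out control library 2 and change another setting too, and the permutation tests with a library left out, were chosen after seeing the data. Depth limits control library 2 most, where 3 counts are 2.51 CPM.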
